A study of Mus musculus with 4 samples.

Results

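The genes described here are 47 mouse genes of DNA replication and S phase, the stage of the cell cycle in which the genome is copied. They were chosen by name, as known factors of the G1/S switch, origin licensing and firing, the MCM helicase, the sliding clamp and its loader, the replicative polymerases, the single-strand binding protein RPA, Okazaki fragment maturation, and chromatin assembly behind the fork. All 47 were found among the 37583 features of the deposited tables, and all 47 had at least 20 reads in each pair of libraries compared. The fewest reads over the 4 libraries were the 181 of Gins2. In the positions that the files give on build mm9, the genes to which the results turn most often are Ccne2 (chr4:11118498-11131926), Gins2 (chr8:123102533-123113204), Pcna (chr2:132074898-132079050), Lig1 (chr7:13862632-13896782) and Dnmt1 (chr9:20711650-20757317), and each count is a sum over the exons of the gene.

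The study asked how blocking the protein kinase CK2 alters gene expression in T helper cells on the way to the Th17 fate, and 4 RNA-seq libraries were analysed. Naive CD4+ T cells from the spleen of C57BL/6 mice were stimulated in all 4 groups with plate-bound antibodies to CD3 and CD28, in the presence of the cytokines IL-6, IL-23 and IL-1β, while IL-4 and IFN-γ were neutralised. The labels call this culture aTh17. In the DMAT group 1.5 µM of the CK2 inhibitor DMAT was present for 24 h, in the CX4945 group 1 µM of the CK2 inhibitor CX4945 for 24 h, and each had its own titled control library with no inhibitor. Each group held 1 library, and the labels give no number of animals or cultures, so a ratio within a pair has no replicate check and the p-values below cover only how far these particular libraries differ, for reasons that may be technical. The inhibitors differed in dose and in control, so their values are set side by side and no difference between them was tested.

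Replication starts when the origin recognition complex, Cdc6 and Cdt1 load the ring-shaped MCM helicase onto DNA in G1. Cyclin E with Cdk2 and the kinase Cdc7 then switch the loaded helicase on, and Cdc45 and the GINS complex join it. Transcription of many of these genes is switched on by E2F factors late in G1. Naive T cells are quiescent, and after stimulation through CD3 and CD28 they enter the cell cycle, so that transcripts of the replication machinery are abundant in an activated culture.

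The libraries held 2056635 to 2772525 exon reads. The 8 CD4 T cell markers examined summed to 2598 to 2745 CPM (reads per library size after TMM scaling) in every library, while 3 NK cell markers and 4 erythroid markers had 0 reads in each. CD8 T cell markers summed to 2.36 to 4.91 CPM, B cell markers to 0.393 to 1.44 CPM and myeloid markers to at most 0.720 CPM. The Th17 transcripts Il17a, Il17f and Il23r fell in the joint test described next. In RNA from whole cultures, fewer cells in a phase of the cycle and less RNA per cell cannot be told apart.

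Levels of the replication genes differed little between libraries, as did those of most genes with many reads. Together the 47 genes took 10527 CPM in the control for DMAT and 11172 CPM with DMAT, a ratio of 1.06 with a 95% counting interval of 1.04 to 1.08. They took 11159 CPM in the control for CX4945 and 10839 CPM with CX4945, a ratio of 0.971 (0.954 to 0.989). The 2 controls, which had no inhibitor, differed by as much as either pair, with a ratio of 1.06 (1.04 to 1.08) for the control for CX4945 over the control for DMAT. Of the 47 genes, 0 were at least 2-fold higher or lower with either inhibitor or between the controls. Over all genes tested, 2.36% were with DMAT (1.27% lower and 1.09% higher, of 9649), 1.81% with CX4945 (0.919% lower and 0.887% higher, of 9358), and 2.26% between the controls (1.28% lower and 0.983% higher, of 9564). Among genes with at least 181 reads over the 4 libraries the shares were 0.581%, 0.568% and 0.457%, so 0 of 47 is near the share over such genes.

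A joint fit of both pairs, with the pair as a block, tested each gene for a change shared by the inhibitors (edgeR's quasi-likelihood test, Benjamini-Hochberg adjustment over 9629 genes). Of all genes 0.561% passed at an adjusted p under 0.05, of which 17 rose (0.177%) and 37 fell (0.384%). With DESeq2's size factors in the same fit 35 rose and 49 fell. Of the 47 replication genes 0 passed. The smallest adjusted p in edgeR's test was 0.762, for Lig1, and 0 of the 47 had an unadjusted p under 0.05, where 7.23% of all genes did. DESeq2 with the same block also passed 0, but it passed only 3 of all 9629 genes, so that 0 says little about the 47. Joint log2 fold changes ran from -0.43 (Gins2) to 0.20 (Chaf1b), with 23 below 0 and 24 above 0, a median of 0.01 beside 0.00 over all genes, and 44 of 47 within 0.2 of 0. The 95% interval of the joint estimate lay within 2-fold either way for 46 genes, all but Gins2, and within 1.5-fold for 45, all but Gins2 and Ccne2. The share of all genes within these bands of the joint estimate was not taken. The width of these intervals rests mainly on the spread over all genes, and it does not measure how cultures vary for a given gene.

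**Figure D1:**
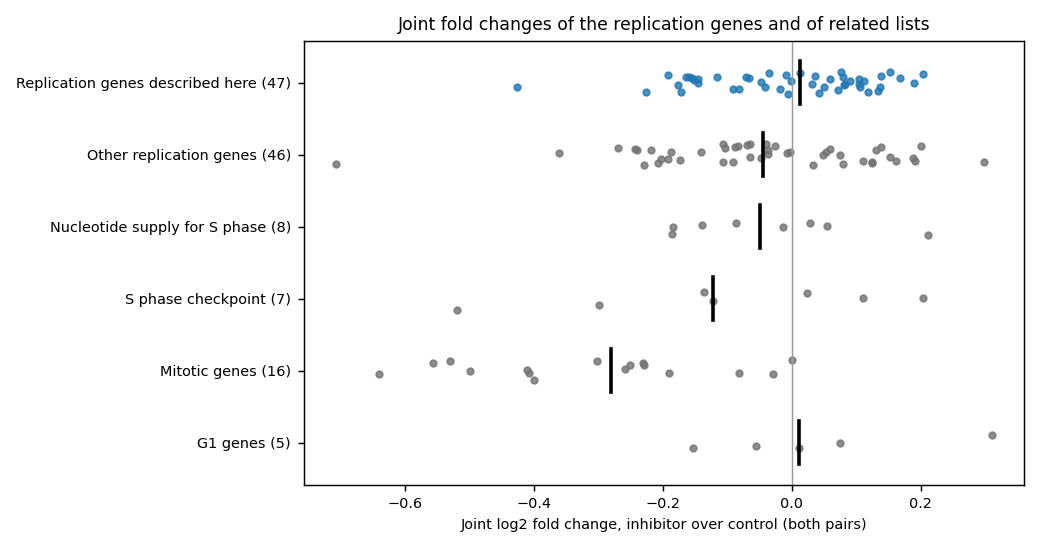
Joint log2 fold change of inhibitor over control (x axis) for each gene of the 47 and of the other cell cycle lists described at the end of the report, with a black bar at each median. The 47 genes lie between -0.43 and 0.20 around a median of 0.01, while the mitotic list has a median of -0.28.

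The pairs leaned in opposite directions by a small amount. With DMAT 32 of the 47 genes were above their control and 15 below, with a median log2 ratio of 0.10 (0.01 over all genes), and with CX4945 11 were above and 36 below, with a median of -0.09 (0.00 over all genes). The controls compared with each other split 32 to 15 as well, with a median of 0.09. Over all genes 49.2% were below the control with DMAT, 49.4% with CX4945 and 49.8% between the controls. The control for DMAT held the lowest value of the 4 libraries for 20 of the 47 genes and the CX4945 library for 17, while the DMAT library held the highest for 19 and the control for CX4945 for 16. For these counts no share over all genes was taken. The choice of control moves with these signs: with the controls exchanged, the medians were 0.02 for DMAT and 0.01 for CX4945, with 26 genes higher and 21 lower for DMAT and 25 higher and 22 lower for CX4945. On exon-exon reads, which cover 46 of the genes, 22 were higher and 24 lower with CX4945. Of the 47 genes 13 were lower in both pairs (27.7%, beside 25.7% of 9262 genes), 9 were higher in both (19.1%, beside 26.9%), 23 were above the control for DMAT but below that for CX4945 (48.9%, beside 23.7%), and 2 (E2f1 and Cdc45) were the reverse (4.26%, beside 23.7%).

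Counting error alone bounds each ratio of a pair. With DMAT the 95% counting interval lay above 1 for 12 genes (Cdt1, Mcm6, Orc2, Rfc2, Rfc5, Pola2, Pold1, Pold2, Pole, Lig1, Uhrf1 and Dnmt1), where it did for 9.24% of all genes, and below 1 for Cdc45, where it did for 9.69%. With CX4945 it lay below 1 for 5 genes (Ccne2, Cdk2, Gins2, Pola1 and Dnmt1), beside 7.42% of all genes, and above 1 for Mcm2 and Mcm5, beside 7.3%. Between the controls it lay above 1 for 12 of the 47 genes, beside 9.49%, and below 1 for 2, beside 9.16%. With the controls exchanged, the interval lay above 1 for 5 genes and below for 7 with DMAT, and above for 10 and below for 8 with CX4945. No share over all genes was taken for the exchanged pairs. Their libraries also differed more over all genes, by chi-square per degree of freedom. It was 3.96 beside 3.24 with the titled control for DMAT, and 5.63 beside 2.56 for CX4945. Counting intervals leave out the spread between cultures.

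**Figure D2:**
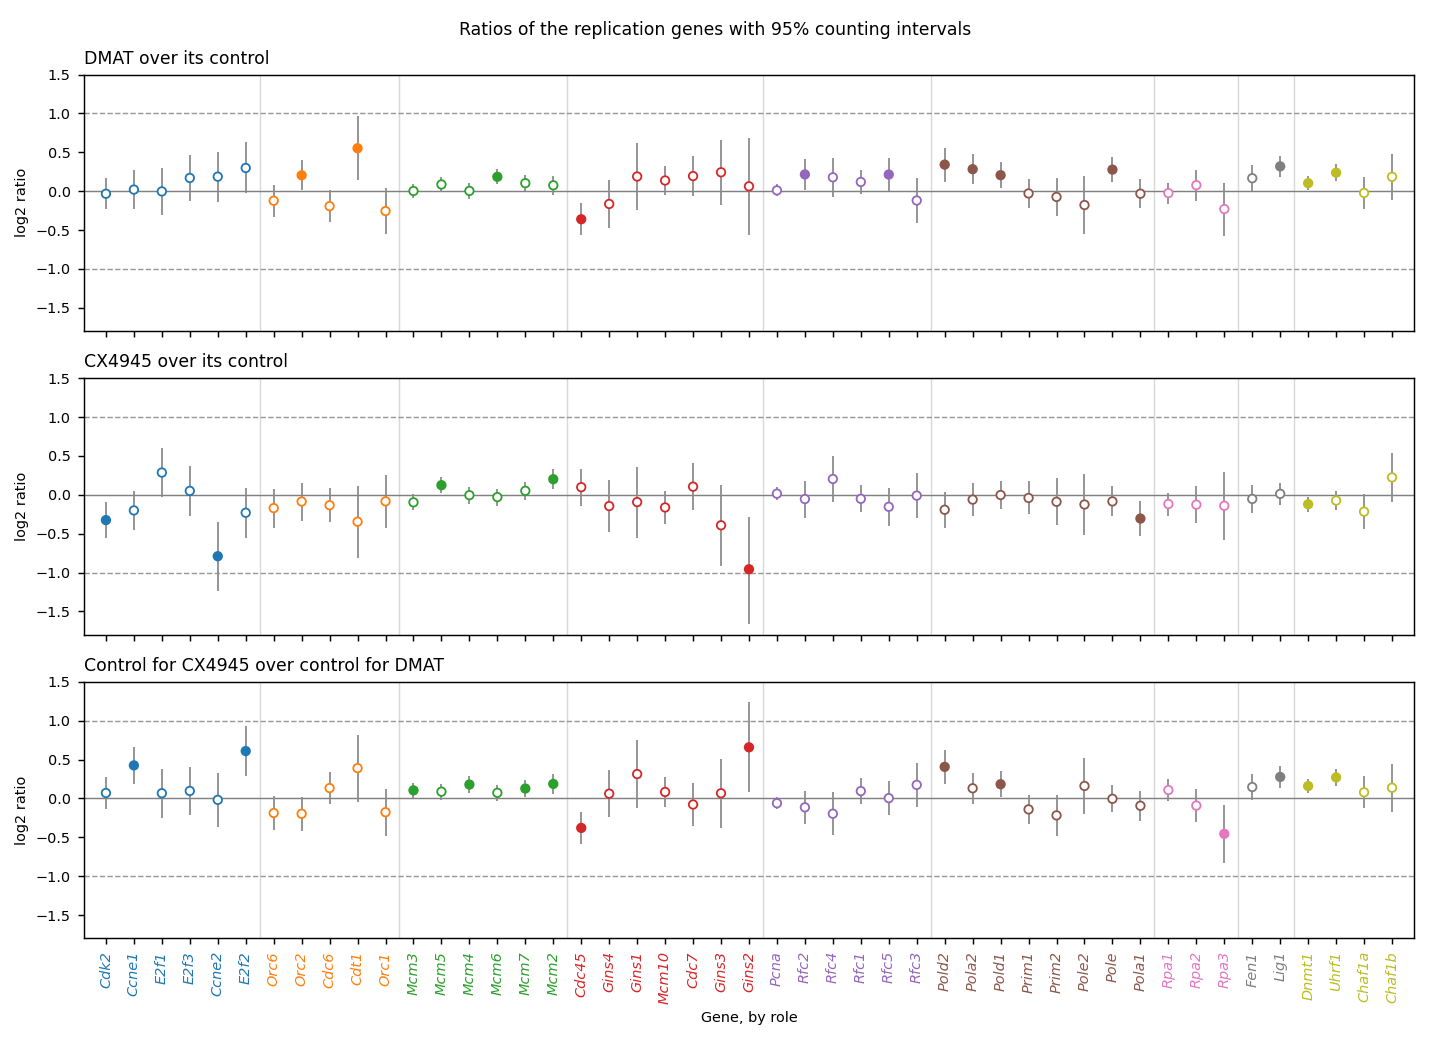
Log2 ratio of CPM (y axis) for each of the 47 genes (x axis), with its 95% counting interval. The panels show DMAT over its control, CX4945 over its control and the control for CX4945 over the control for DMAT. The ratios carry no prior count, and all of them lie between 0.515 (Gins2 with CX4945) and 1.58 (Gins2 between the controls).

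The 6 G1/S genes are the E-type cyclins, their kinase and the E2F factors that activate replication genes. Together they were at 507 and 533 CPM in the DMAT pair (ratio 1.05, interval 0.976 to 1.13) and at 585 and 516 CPM in the CX4945 pair (0.882, 0.813 to 0.957), while the controls had a ratio of 1.16 (1.07 to 1.25). Ccne2, a cyclin E, had 57.6 CPM in the control for DMAT, 65.6 with DMAT, 56.9 in the control for CX4945 and 32.9 with CX4945. That last library stood alone below the other 3, at a ratio of 0.578 to its control (0.424 to 0.783), with a DMAT ratio of 1.14 (0.911 to 1.42). The joint log2 fold change of Ccne2 was -0.23 ± 0.19 (SE) with an adjusted p of 0.896 in edgeR's test, and 59.5% of its reads mapped to it uniquely. Cdk2, the kinase that cyclin E activates and the gene with the most reads of the group, had 155.9 and 152.4 CPM in the DMAT pair and 163.7 and 130.7 in the CX4945 pair, again lowest with CX4945 (ratio 0.798, 0.680 to 0.936). E2f1, an activator of the G1/S programme, went the other way in that pair, with 67.7 and 67.5 CPM for the DMAT pair and 70.9 and 86.5 for the CX4945 pair, a ratio of 1.22 with an interval of 0.979 to 1.52, and its log2 ratio with CX4945 turned to -0.14 on exon-exon reads. Ccne1, E2f2 and E2f3 ran from 0.02 to 0.29 in log2 ratio in the DMAT pair and from -0.23 to 0.05 in the CX4945 pair.

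Licensing factors mark origins and load the helicase. The 5 genes summed to 572 and 565 CPM in the DMAT pair and to 549 and 499 CPM in the CX4945 pair, where all 5 were lower on total reads (ratio of the sums 0.908, 0.835 to 0.987). The direction with CX4945 turned for Orc1 on unique reads (log2 0.08) and on exon-exon reads (0.31), and for Cdc6 on exon-exon reads (0.08). Cdc6, the ATPase that recruits the helicase to the origin complex and the gene with the most reads of the group, had 154.8 and 135.5 CPM in the DMAT pair and 169.8 and 154.7 in the CX4945 pair. Both inhibitor libraries were below their own controls, but the CX4945 library was at the level of the control for DMAT. Cdt1, the partner of Cdc6 in loading, had 32.4 CPM in the control for DMAT, 47.5 with DMAT, 42.5 in the control for CX4945 and 33.4 with CX4945. Its DMAT ratio of 1.47 (1.11 to 1.95) was the largest of the 47 on total reads, its CX4945 ratio was 0.787 (0.568 to 1.08), and the controls differed by 1.31 (0.973 to 1.77). Only 62.8% of the reads of Cdt1 were unique, and on unique reads (62 and 72) its DMAT ratio was 1.27, with an interval of 0.888 to 1.81 that includes 1, below that of Pold2. Orc1, the largest subunit of the origin recognition complex, had 80.7 and 67.5 CPM in the DMAT pair and 71.3 and 67.3 in the CX4945 pair, with only 31.9% of its reads unique. Its joint log2 fold change was -0.18 ± 0.14 (SE), with an adjusted p of 0.891 in edgeR's test. For Orc2 the log2 ratio was 0.20 in the DMAT pair and -0.09 in the CX4945 pair, and for Orc6 it was -0.12 and -0.17.

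The MCM helicase, a ring of Mcm2 to Mcm7, had even levels. Levels per exon length, on the RPKM scale, ranged only 1.86-fold among the 6 genes, from 128 for Mcm2 to 238 for Mcm3 as means of the 4 libraries. The summed level was 3395 and 3578 CPM in the DMAT pair (ratio 1.05, 1.02 to 1.08) and 3693 and 3772 CPM in the CX4945 pair (1.02, 0.990 to 1.05), while the controls differed by 1.09 (1.06 to 1.12). Mcm3, the one with the highest level per length and the most reads, had 699.0 and 699.8 CPM in the DMAT pair and 751.1 and 702.4 CPM in the CX4945 pair. The control for CX4945 stood above the other 3 libraries, which were nearly equal. For the other 5 the log2 ratio ran from 0.00 to 0.18 in the DMAT pair and from -0.03 to 0.20 in the CX4945 pair. Over the 6 genes the 95% intervals of the joint log2 fold change ran from -0.218 at the lowest bound to 0.320 at the highest. All lay within 1.25-fold either way. Their width rests mainly on the spread over all genes, and it does not measure how cultures vary for these genes.

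**Figure D3:**
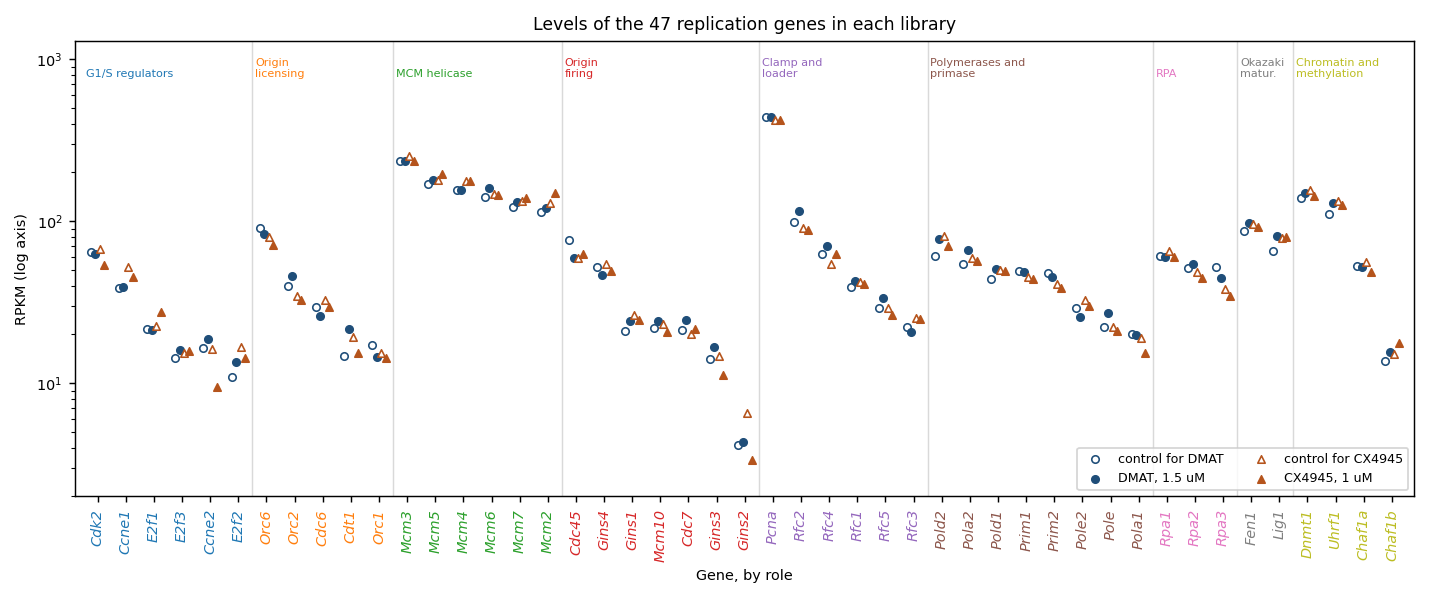
Level per exon length (RPKM, log axis) of the 47 genes in each of the 4 libraries, ordered by role. The 4 points of a gene lie close together beside the distance between genes, from 4.58 RPKM for Gins2 to 430 for Pcna as means of the libraries.

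Promoters of 4 of the 6 MCM genes carry E2F-type letters, while that of Mcm2 has none in its window and Mcm4 had no window. They are shown because E2F is well known to switch replication genes on. RefSeq windows on build GRCm38.p6, from 250 bases before to 50 after the start of a gene, were matched by symbol for 39 of the 47 genes (the first listed where a gene has several), with none matched for Ccne2, Mcm4, Gins1, Gins2, Gins4, Rfc2, Prim2 and Pole. The files use build mm9, so only the sequence was taken from these windows and no position was carried over. In 27 of the 39 windows the first bases after the start lay near the beginning of an annotated transcript, not necessarily at its first base. They did so for Mcm3 and Rfc3, but not for Mcm5, Mcm6 and Mcm7. For every gene, "start" means only the start that the window gives, and Mcm7 had 2 windows listed. At least 1 of the letters TTTCCCGC, TTTGGCGC, TTTCGCGC or TTTGCCGC on either strand was found in 15 of the 39 windows (38.5%), in 2.83% of 16175 windows of all genes and in 5.16% of 5273 windows of genes with at least 181 reads. The 5 genes with at least 2 matches were Mcm3, Mcm5, Mcm6, Mcm7 and Rfc3. Below, all run 5′ to 3′ on the strand of the gene, with the matches in capitals.
Mcm5, the 250 bases before the start, chr8:75109259-75109508, plus strand, 2 matches that overlap: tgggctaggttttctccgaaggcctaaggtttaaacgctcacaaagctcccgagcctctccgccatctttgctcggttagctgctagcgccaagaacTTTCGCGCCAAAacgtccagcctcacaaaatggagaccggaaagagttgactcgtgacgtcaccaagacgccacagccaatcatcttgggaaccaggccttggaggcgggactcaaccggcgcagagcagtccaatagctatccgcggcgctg
Mcm6, the 250 bases before the start, chr1:128359706-128359955, minus strand, 3 matches, the first 2 overlapping: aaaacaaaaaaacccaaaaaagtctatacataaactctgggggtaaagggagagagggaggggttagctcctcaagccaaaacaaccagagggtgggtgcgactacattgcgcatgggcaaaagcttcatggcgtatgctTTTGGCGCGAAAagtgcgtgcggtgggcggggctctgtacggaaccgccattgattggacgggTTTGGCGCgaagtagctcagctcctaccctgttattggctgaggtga
Mcm7, the 250 bases before the start, chr5:138171884-138172133, minus strand, 1 of its 2 matches, the other lying after the start: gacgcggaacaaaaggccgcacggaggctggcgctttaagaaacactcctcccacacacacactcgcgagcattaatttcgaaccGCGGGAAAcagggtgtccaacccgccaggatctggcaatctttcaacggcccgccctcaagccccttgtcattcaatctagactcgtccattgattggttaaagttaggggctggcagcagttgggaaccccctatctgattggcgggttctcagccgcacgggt
Mcm3, the matches after the start, chr1:20820266-20820294, minus strand: gGCGGGAAAacttgggaagtTTTGGCGCc
Rfc3, the matches at the start, chr5:151651200-151651219, minus strand: cTTTCGCGCtcGCGGGAAAa

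The windows were searched for 4 other motifs, all on both strands and with overlaps between motifs allowed. The NF-Y letters CCAAT were in 66.7% of the 39 windows, beside 39.5% of those of genes with at least 181 reads, the Sp1 letters GGGCGG in 71.8% beside 68.5%, the CHR letters TTTGAA or TTCGAA in 23.1% beside 14.2%, and the E-box letters CACGTG in 12.8% beside 11.5%. The median log2 ratio of the 15 genes with an E2F match was 0.09 in the DMAT pair and -0.10 in the CX4945 pair, and that of the 24 without one was 0.11 and -0.07. A match describes letters in the window and is no evidence of binding.

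Origin firing factors turn the loaded ring into a moving helicase. The 7 genes summed to 583 and 578 CPM in the DMAT pair and to 571 and 536 CPM in the CX4945 pair, and both intervals of the ratio included 1. Cdc45, the helicase cofactor and the firing gene with the highest level per length (64.5 RPKM), had 172.5 CPM in the control for DMAT, 134.3 with DMAT, 132.6 in the control for CX4945 and 142.0 with CX4945. The control for DMAT stood alone above the other 3, and it differed as much from the other control (ratio of the controls 0.769, 0.664 to 0.890) as from the DMAT library (0.779, 0.676 to 0.896). Mcm10, a factor of helicase activation, had 168.2 and 185.0 CPM in the DMAT pair and 178.2 and 159.2 in the CX4945 pair, with both intervals including 1. Cdc7, the kinase that phosphorylates the MCM ring, had 88.2 and 100.9 CPM in the DMAT pair and 83.6 and 89.9 in the CX4945 pair, above its control in both, with a joint adjusted p of 0.896 in edgeR's test.

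The GINS complex joins Cdc45 on the helicase during firing. Gins2, one of its subunits and the lowest of the 47 per length at 4.58 RPKM, had 47, 45, 61 and 28 reads in the control for DMAT, DMAT, the control for CX4945 and CX4945, which is 16.9, 17.7, 26.7 and 13.8 CPM. Its highest library was the control for CX4945 and its lowest the CX4945 library, so that this pair gave the lowest ratio of the 47 genes, 0.515 (0.317 to 0.818), while the controls differed by 1.58 (1.06 to 2.36). The joint log2 fold change of Gins2 was -0.43 ± 0.30 (SE), with an adjusted p of 0.840 in edgeR's test. Gins3 had 33.9 and 40.1 CPM in the DMAT pair and 35.5 and 27.0 in the CX4945 pair, and Gins4 had 71.3 and 63.6, and 74.4 and 67.3. All 4 of those intervals included 1. For Gins1 the log2 ratio was 0.18 in the DMAT pair and -0.09 in the CX4945 pair.

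Pcna, the sliding clamp that tethers polymerases to DNA, was the most abundant gene of the 47 per length, at 430 RPKM. It had 1048 CPM in the control for DMAT, 1056 with DMAT, 1004 in the control for CX4945 and 1015 with CX4945. The levels of the 4 libraries lay within 1.05-fold, the narrowest spread of the 47, and the ratios were 1.01 with each inhibitor (0.955 to 1.06 and 0.952 to 1.07). Reads of Pcna were 54.4% unique. Of the clamp loader, the complex that opens Pcna, Rfc4 had 95.8 and 108.4 CPM in the DMAT pair and 83.6 and 96.3 in the CX4945 pair, higher than its control in both with intervals that include 1. The log2 ratio of the other 4 loader genes ran from -0.12 to 0.21 in the DMAT pair and from -0.15 to -0.01 in the CX4945 pair.

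Primase lays down primers and the polymerases alpha, delta and epsilon extend them. The 8 genes summed to 1220 and 1344 CPM in the DMAT pair (ratio 1.10, 1.05 to 1.16) and to 1263 and 1177 CPM in the CX4945 pair (0.932, 0.883 to 0.985), where all 8 were lower. Pold1, the catalytic subunit of polymerase delta and the gene of the group with the most reads, had 212.5 and 245.1 CPM in the DMAT pair and 241.2 and 240.7 in the CX4945 pair. The control for DMAT stood below the other 3 libraries, which were nearly equal. Pold2, its second subunit, was also lowest there, with 115.6 CPM in the control for DMAT, 146.5 with DMAT, 153.2 in the control for CX4945 and 134.1 with CX4945. The DMAT ratio of Pold2 was 1.27 (1.09 to 1.48) and the ratio of the controls 1.32 (1.14 to 1.55), so its direction with DMAT turned when the other control was used (log2 -0.06). Pola1, the catalytic subunit of polymerase alpha, which extends primers, had 177.5 and 173.6 CPM in the DMAT pair and 166.3 and 134.6 in the CX4945 pair. It was lowest with CX4945 (0.809, 0.690 to 0.948), and its joint adjusted p was 0.838 in edgeR's test. Prim1, Prim2, Pola2, Pole and Pole2 ran from -0.18 to 0.28 in log2 ratio in the DMAT pair and from -0.12 to -0.04 in the CX4945 pair.

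RPA coats single-stranded DNA at the fork. Rpa1, its largest subunit and the gene with the most reads of the 3, had 340.0 and 334.2 CPM in the DMAT pair and 366.4 and 337.5 in the CX4945 pair, with intervals that include 1. Rpa3, its smallest subunit, had 59.4 and 50.7 CPM in the DMAT pair and 43.3 and 39.3 in the CX4945 pair. Each inhibitor library was below its own control, but the larger step was between the controls, with a ratio of 0.729 (0.563 to 0.941). For Rpa2, the middle subunit, the log2 ratio was 0.08 in the DMAT pair and -0.13 in the CX4945 pair.

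Okazaki fragments are trimmed by Fen1 and sealed by DNA ligase I, the product of Lig1. Lig1 had 317.6 CPM in the control for DMAT, 396.2 with DMAT, 384.8 in the control for CX4945 and 388.1 with CX4945. The control for DMAT stood below the other 3 libraries, which lay close to each other. The DMAT ratio was 1.25 (1.14 to 1.37), the ratio of the controls was 1.21 (1.10 to 1.33) and the CX4945 ratio was 1.01 (0.915 to 1.11). The joint log2 fold change of Lig1 was 0.17 ± 0.09 (SE). For Fen1 the log2 ratio was 0.17 in the DMAT pair and -0.05 in the CX4945 pair, but only 9.7% of its reads were unique.

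Chaf1a and Chaf1b, subunits of the CAF-1 histone chaperone, Uhrf1, which reads half-methylated DNA, and Dnmt1, the maintenance DNA methyltransferase, act behind the fork. Their sum was 1421 and 1566 CPM in the DMAT pair (ratio 1.10, 1.05 to 1.15) and 1619 and 1515 CPM in the CX4945 pair (0.936, 0.892 to 0.982), beside a ratio of the controls of 1.14 (1.09 to 1.19). Dnmt1 had 730.3 CPM in the control for DMAT, 784.3 with DMAT, 815.5 in the control for CX4945 and 749.6 with CX4945. Its highest library was the control for CX4945 and its lowest the control for DMAT, with both inhibitor libraries between them. Its ratios were 1.07 (1.01 to 1.14) with DMAT and 0.919 (0.858 to 0.984) with CX4945. Chaf1b had 68.4 and 77.8 CPM in the DMAT pair and 75.3 and 87.9 in the CX4945 pair, and the joint log2 fold change of 0.20 ± 0.14 (SE), the highest of the 47, had an adjusted p of 0.833 in edgeR's test. The log2 ratio of Chaf1a was -0.02 in the DMAT pair and -0.21 in the CX4945 pair, and that of Uhrf1 was 0.24 and -0.07.

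**Figure D4:**
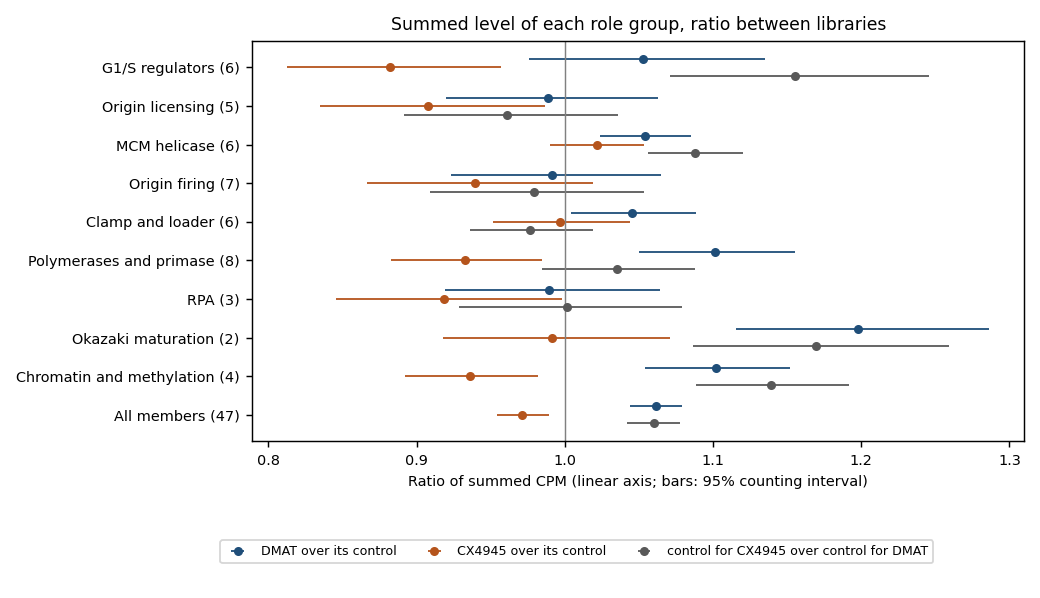
Ratio of summed CPM with its 95% counting interval for each role group in the DMAT pair, the CX4945 pair and between the controls. The ratios run from 0.882 (G1/S genes with CX4945) to 1.20 (Okazaki maturation with DMAT), and the controls span 0.961 to 1.17.

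Other genes of the cycle were read from lists beside the 47. The 46 further replication genes had a joint median of -0.04. In edgeR's test 6 of them had an unadjusted p under 0.05, where 7.23% of all genes did, and all 6 fell. They were 2810417H13Rik, Dbf4, Ccna2, Top1, Slbp and Top2a, which is also on the mitotic list below. Of the 46 genes, 1 passed the joint test, 2810417H13Rik, whose RefSeq symbol is Pclaf and whose product binds PCNA. It had 420 and 236 reads in the DMAT pair and 348 and 190 in the CX4945 pair, a log2 ratio of -0.70 in each, with 0.01 between the controls. Both inhibitor libraries were below both controls. The joint log2 fold change was -0.71 ± 0.12 (SE), with an adjusted p of 0.00534 in edgeR's test and a range from 0.000295 to 0.9999 over the alternatives run. Only 13.1% of its reads were unique. The adjusted p in edgeR was 0.448 with unique reads alone, 0.243 with exon-exon reads and 0.610 with no replicate block, and it was 0.9999 in DESeq2. With other scaling or filters it stayed under 0.05 in edgeR (0.000295 to 0.0457). With 1 library left out and no block, the log2 fold change ran from -0.72 to -0.70. Of that list Asf1a, a histone chaperone gene, was past 2-fold in both pairs in opposite directions, with 48 and 94 reads in the DMAT pair and 64 and 27 in the CX4945 pair, and its joint adjusted p in edgeR was 0.972. The 8 genes of nucleotide supply and the 7 of the S phase checkpoint had 0 that passed in edgeR, 2 (Rrm1 and Rrm2) and 1 (Hus1) at an unadjusted p under 0.05, and joint medians of -0.05 and -0.12.

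The 16 mitotic genes, used after S phase, had a joint median of -0.28. In edgeR 11 of them had an unadjusted p under 0.05, where 7.23% of all genes did. With DMAT 16 of 16 were below the control (median log2 ratio -0.42), beside 49.2% of all genes. With CX4945 13 of 16 were (median -0.19), beside 49.4%. Between the controls, that for CX4945 was also below the control for DMAT in 15 of the 16 genes (median -0.33), beside 49.8%. Ccnb1, which encodes cyclin B1 and drives entry into mitosis, fell: it had 491 and 242 reads in the DMAT pair and 284 and 199 in the CX4945 pair, and its joint log2 fold change was -0.64 ± 0.13 (SE), with an adjusted p of 0.0214 in edgeR's test. The ratio of the controls was 0.703 (0.605 to 0.815) for Ccnb1, 43.7% of its reads were unique, and the adjusted p in edgeR was 0.192 with unique reads alone and 0.999 with no replicate block, within a range of 0.00184 to 0.9999 over the alternatives run. With 1 library left out, which was run with no block, the log2 fold change of Ccnb1 ran from -0.88 to -0.37. The 5 G1 genes (Ccnd2, Ccnd3, Cdk4, Cdk6 and Myc) had 0 that passed and a joint median of 0.01.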

How the data were processed

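Gene expression was measured by RNA-seq of total RNA in 4 libraries, with TruSeq kits per the labels' protocols. The files hold counts of total exon reads per gene, as deposited, whole numbers with no normalization by the authors, and reads that map to several places are included. Build mm9 and CASAVA 1.8.2 come from the submitters' processing notes. For the aligner, the annotation, the counting rule and the use of strand, nothing is given in the sources used here. The files also list unique exon reads, exon-exon reads, gene reads and an exon length, and levels on the RPKM scale were computed here from that length, which may cover exons that these cells do not use.

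TMM factors (edgeR 4.0.16, R 4.3.3) lay between 0.990 and 1.01 and were taken over genes that pass edgeR's filter on low counts. The log2 ratios of a pair used CPM with a prior count of 2 for genes with at least 20 reads in the pair, and a difference of at least 2-fold was called. Ratios printed without log2 carry no prior count, and their intervals are exact conditional (Clopper-Pearson) 95% intervals. They take in no error but that of counting. Because reads of PCR copies are not separate molecules, the intervals may be too narrow even for that. At these depths the floor of 3 counts stood for 1.08 to 1.47 CPM. The joint fit had the pair as a block, and an SE is the absolute log2 fold change over the square root of F. It left 1 residual degree of freedom per gene and took its spread mainly from all genes (19.7 prior degrees of freedom). The pairing comes from the titles. Over 6969 genes with at least 200 reads, the step between the experiments was only partly alike in control and inhibitor libraries. Pearson's r was 0.425 across genes, which are not independent. The step in the inhibitor libraries also holds any difference between the inhibitors. No library was a duplicate of another: chi-square per degree of freedom was 2.56 to 5.63. Scripts were tested on simulated data.

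The genes, lists and tests were chosen with earlier results of these data known. Values in every library are given for genes past 2-fold or past the joint test, the 8 lowest and 4 highest joint fold changes, the gene with the most reads of each role group and the 3 nearest to 2-fold on each side of each pair. Alternatives were DESeq2 (version 1.42.0), other scaling, filters, prior counts and read columns, exchanged controls, no block, and each library left out with no block. All were planned except exon-exon reads, which were added after seeing the data.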

Additional observations from a re-analysis of the deposited data

Results flagged for a closer look

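Dnmt1 was the only gene of the 47 whose counting intervals in the 2 pairs lay on opposite sides of 1. How many of all genes had such intervals was not taken, so this is not known to be particular to Dnmt1. Its log2 ratio was 0.10 with DMAT and -0.12 with CX4945, and the difference between these was not tested. The controls differed for Dnmt1 by 0.16 on the log2 scale, more than either pair.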

How the results depend on the processing

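Of the 47 genes 0 passed the joint test in every fit run, and the smallest adjusted p of any was 0.105, for Ccne2 in edgeR without the DMAT library. The control used moved the values of a pair. With the controls exchanged, the median log2 ratio of the 47 was 0.023 with DMAT and 0.007 with CX4945 (0.103 and -0.086 with the titled controls). Of the 47 genes 18 in place of 7 had an interval excluding 1 with CX4945, and 7 in place of 13 were lower with both inhibitors. No share over all genes was taken for these counts. Among the 23 genes with values given in every library, that exchange turned the sign of 7 with DMAT, namely Cdc45 (0.018), Pold2 (-0.064), Dnmt1 (-0.056), Rpa3 (0.221), Gins2 (-0.573), Mcm3 (-0.102) and Pola1 (0.061), and of 7 with CX4945, namely Dnmt1 (0.037), Pold2 (0.213), Cdc45 (-0.280), Pold1 (0.179), Cdt1 (0.042), Mcm3 (0.007) and Pcna (-0.047). Exon-exon reads turned 5 of 22 with each inhibitor, unique reads and total-count scaling 1 of 23 with each. Exon-exon reads, which cover 46 of the genes at lower depth, gave 8 intervals excluding 1 with DMAT in place of 13 and 4 with CX4945, a CX4945 median of -0.022 and a joint median of 0.072 in place of 0.012. The number of all genes that passed the joint fit, 54, was 1 with no replicate block, 84 with DESeq2's size factors, 101 with total-count scaling, 108 with unique reads, 14 with exon-exon reads, 11 with a filter at 50 reads and 3 in DESeq2 with the pair as a block; the cause was not tested. The replicate block changed no call among the 47. Leaving out 1 library gave 1 to 73 genes (1 without either control, 55 without the CX4945 library and 73 without the DMAT library) and a median of the 47 from -0.043 to 0.043; the lone library of an arm was then assumed to vary like the others. Depth limits Gins2 most, which had 28 to 61 reads per library.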

Other observations

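Across the 47 genes the log2 ratios of the DMAT pair and of the CX4945 pair had a Pearson's r of -0.0799 and a Spearman's rho of 0.0143, beside 0.128 and 0.0822 across the 7225 genes with at least as many reads. These are descriptions across genes of 2 pairs that share no library. The highest of the 4 libraries was under 1.5 times the lowest for 43 of the 47 genes, with a median of 1.24 times, and the other 4 were Ccne2, E2f2, Gins2 and Rpa3. This measure was not taken over all genes. Among all genes with at least 181 reads, the quartiles of the log2 ratio were -0.149 and 0.144 with DMAT. They were -0.151 and 0.141 with CX4945, and -0.148 and 0.152 between the controls.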
